A study of Mus musculus with 35 samples.

Results

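AP-1 and the immediate-early factors are represented here by 10 of the 55487 genes in each count table, chosen by gene symbol: Fos, Fosb, Fosl1, Fosl2, Jun, Junb, Jund, Egr1, Egr2 and Atf3. All 10 were found in all 4 tables. The study knocked down or knocked out IAMP, a micropeptide encoded by the transcript listed as 4930523C07Rik, and sequenced RNA from 27 libraries of mouse cardiac fibroblasts (CFs) and 8 whole hearts. CFs were primary cells dissociated with enzymes from adult mouse hearts, kept as the adherent fraction and grown in serum. They received a Scrambled siRNA or 1 of 2 siRNAs against the same transcript (IAMP siR-1, IAMP siR-2), and were left untreated or given IL-17 or TGF-β, with 3 libraries in each of the 9 groups. The labels state 24 h of siRNA and then 24 h of IL-17. No times were found in the labels for the untreated or TGF-β cells. Hearts came from C57BL/6 mice, 4 heterozygous for the IAMP mutation (HET) and 4 homozygous (IAMP-KO), 8 weeks old and without injury. The mutation is a germline CRISPR frameshift, the controls carry 1 copy of it, and no wild-type heart was in the table.

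AP-1 is a dimer of basic leucine zipper proteins. A JUN protein pairs with a FOS protein, with another JUN or with an ATF protein, and the pair binds short palindromic sites in promoters and enhancers. Most of these genes are immediate-early genes: growth factors, cytokines, stress and cell handling switch them on within minutes and without new protein synthesis, through MAP kinases, ELK1 and serum response factor, and the transcripts decay quickly. In fibroblasts, AP-1 is known for driving matrix metalloproteinase and cytokine genes, and EGR1 for matrix genes downstream of growth factors and TGF-β.

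The genes lie on separate loci in GRCm38, with GENCODE vM21 boundaries. FOS family genes were Fos (ENSMUSG00000021250, chr12:85473890-85477273), Fosb (ENSMUSG00000003545, chr7:19302696-19310051), Fosl1 (ENSMUSG00000024912, chr19:5447547-5455946) and Fosl2 (ENSMUSG00000029135, chr5:32135801-32157842). JUN family genes were Jun (ENSMUSG00000052684, chr4:95049034-95052222), Junb (ENSMUSG00000052837, chr8:84974484-84978718) and Jund (ENSMUSG00000071076, chr8:70698949-70700616). The zinc-finger factors were Egr1 (ENSMUSG00000038418, chr18:34859823-34864984) and Egr2 (ENSMUSG00000037868, chr10:67535475-67542188), and Atf3 (ENSMUSG00000026628) lies at chr1:191170296-191218039. The exons of Fosl1 share 1163 bases with Ccdc85b on the opposite strand, and those of Junb share 173 bases with Prdx2. Whether counting used strand was not stated, so reads over these bases cannot be assigned with certainty. In hearts Ccdc85b had 439 to 650 counts while Fosl1 had 0 to 4.

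The knockdown was seen in every treated group. The IAMP transcript had 22.0, 22.7 and 25.7 CPM (counts scaled to the TMM-normalised library size) in untreated Scrambled CFs, against 2.52, 3.51 and 2.98 with IAMP siR-1 and 1.77, 1.87 and 1.89 with IAMP siR-2. With TGF-β it had 19.1, 19.5 and 22.6 CPM in Scrambled CFs, 4.58, 4.01 and 4.42 with IAMP siR-1, and 2.87, 3.18 and 3.72 with IAMP siR-2. The fall was therefore smaller with TGF-β than without it, by 0.73 ± 0.15 (difference of log2 fold changes ± SE, adjusted p = 0.00113) for IAMP siR-1 and by 1.03 ± 0.16 (adjusted p = 1.7e-05) for IAMP siR-2. In hearts the transcript was 15.9, 16.4, 18.8 and 17.0 CPM in HET and 15.1, 16.3, 15.4 and 17.3 CPM in IAMP-KO mice, so the frameshift cannot be checked from its level.

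CF libraries held 104139670 to 119232309 estimated counts and hearts 23497027 to 23857313 counts. The summed level of 7 fibroblast markers was 7921 to 16520 CPM in CFs, against 541 to 825 CPM in hearts. It was 8426 to 8575 CPM in untreated and 14084 to 14685 CPM in TGF-β Scrambled CFs. In untreated Scrambled CFs it was mostly Col1a1 and Col1a2 (means of 3743 and 3482 CPM). With TGF-β the Scrambled means were 6887 CPM for Col1a1, 4782 CPM for Col1a2 and 2232.5 against 573 CPM for Dcn. Lum was about level (71.2 against 69.2 CPM). Pdgfra (127 against 351 CPM), Tcf21 (119 against 187 CPM) and Dpt (96.7 against 105 CPM) were lower with TGF-β. Of 7 cardiomyocyte markers, the sum in CFs was 3.58 to 98.2 CPM, against 40846 to 44208 CPM in hearts. Myh6 was at 0 in every untreated Scrambled library. That sum moved with the groups: 90.9 to 98.2 CPM in untreated Scrambled CFs, 42.6 to 47.6 CPM with IAMP siR-1, 28.3 to 33.3 CPM with IAMP siR-2 and 5.54 to 6.22 CPM in Scrambled CFs with TGF-β, and in untreated Scrambled CFs it was almost all Tnnt2 (mean 93.4 CPM). Endothelial markers summed to 64.2 to 69.8 CPM in untreated and 104 to 106 CPM in TGF-β Scrambled CFs. Kdr went the other way, with a mean of 6.18 CPM in untreated and 2.23 CPM in TGF-β Scrambled CFs. Macrophage markers summed to 22.8 to 24.7 CPM in untreated Scrambled, 34.0 to 36.4 CPM in untreated IAMP siR-2 and 40.8 to 47.6 CPM in TGF-β Scrambled CFs. The rise in untreated IAMP siR-2 CFs was mostly Csf1r, at a mean of 21.1 CPM against 9.43 CPM in Scrambled. C1qa and C1qb were lower there (1.24 and 1.70 against 2.15 and 2.59 CPM). Ptprc, Adgre1, Cd68 and Mrc1 had adjusted p above 0.05. The higher sum in TGF-β Scrambled CFs was mostly Cd68 (mean 19.7 against 5.57 CPM in untreated Scrambled) and Adgre1 (7.52 against 1.22 CPM). Between the same groups C1qa (0.854 against 2.15 CPM) and C1qb (0.640 against 2.59 CPM) were lower with TGF-β. Mural cell markers summed to 34.4 to 89.6 CPM over all CFs, and erythroid markers to 0 to 1.54 CPM. The part of these cells in the results below was not tested. Each library is a bulk sample, in which fewer expressing cells and less RNA per cell cannot be told apart.

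Short windows around known motifs are shown because they are the classical entry points of serum response factor, EGR proteins and AP-1 into this gene group. RefSeq promoters of GRCm38.p6, from 250 bases before to 50 after the transcription start, were at hand for 8 of the 10 genes, all but Fosl1 and Egr1. Both strands were searched for 5 motifs. The CArG box, the core of the serum response element, was in 1.63% of 32851 promoters. The AP-1 site TGAGTCA was in 5.2%, the cAMP response element TGACGTCA in 1.79%, the EGR site GCGGGGGCG in 2.91% and the AP-1-like site TGACATCA of the Jun promoter in 3.62%. In each window of 30 bases, written 5′ to 3′ on the gene's strand, capitals mark the motif:

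Egr2, first CArG box, chr10:67537484-67537513, + strand, 72 bases before 1 of its 5 listed starts: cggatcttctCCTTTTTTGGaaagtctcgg

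Egr2, second CArG box, chr10:67537787-67537816, + strand, 72, 73 or 133 bases before 3 others: gttcctcagtCCATATATGGgcagcgacgt

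Fosl2, EGR site, chr5:32136383-32136412, + strand, 79 bases before the start: ccggctgcgcGCGGGGGCGgaagggcgcgc

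Fosb, EGR site, chr7:19310076-19310105, − strand, 50 bases before the start: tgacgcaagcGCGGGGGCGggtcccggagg

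Jun, AP-1-like site, chr4:95052249-95052278, − strand, 45 bases before the start: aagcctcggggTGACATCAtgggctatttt

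A match is a description of letters, and none of these windows was assayed. The windows searched in Fos, Junb, Jund and Atf3 held none of the 5 motifs as spelled, which says nothing of sites outside them.

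Per kilobase of exon, Jund was the most abundant of the genes in untreated Scrambled CFs at 63.3 ± 4.40 CPM per kb (SD, n = 3). It was followed by Junb (29.1 ± 1.72), Egr1 (20.8 ± 0.685), Fosl2 (17.7 ± 1.34), Jun (15.7 ± 0.526) and Fosl1 (9.58 ± 0.477). Egr2 (3.41 ± 0.281) and Fos (3.12 ± 0.345) overlapped in their libraries, and Atf3 (1.91 ± 0.128) and Fosb (0.679 ± 0.0659) were lowest. Apart from Egr2 and Fos, no neighbours in this order overlapped. Within the FOS family, Fosl2 and Fosl1 stood above Fos and Fosb on this scale. In hearts Jund also came first (105 to 124 CPM per kb), then Jun (15.9 to 19.3) and Junb (6.80 to 11.6), while Atf3, Egr1 and Fosl2 overlapped between 1.41 and 6.26 CPM per kb. Fosl1 was at or near 0 in hearts, at 0 to 0.0848 CPM per kb.

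**Figure D1:**
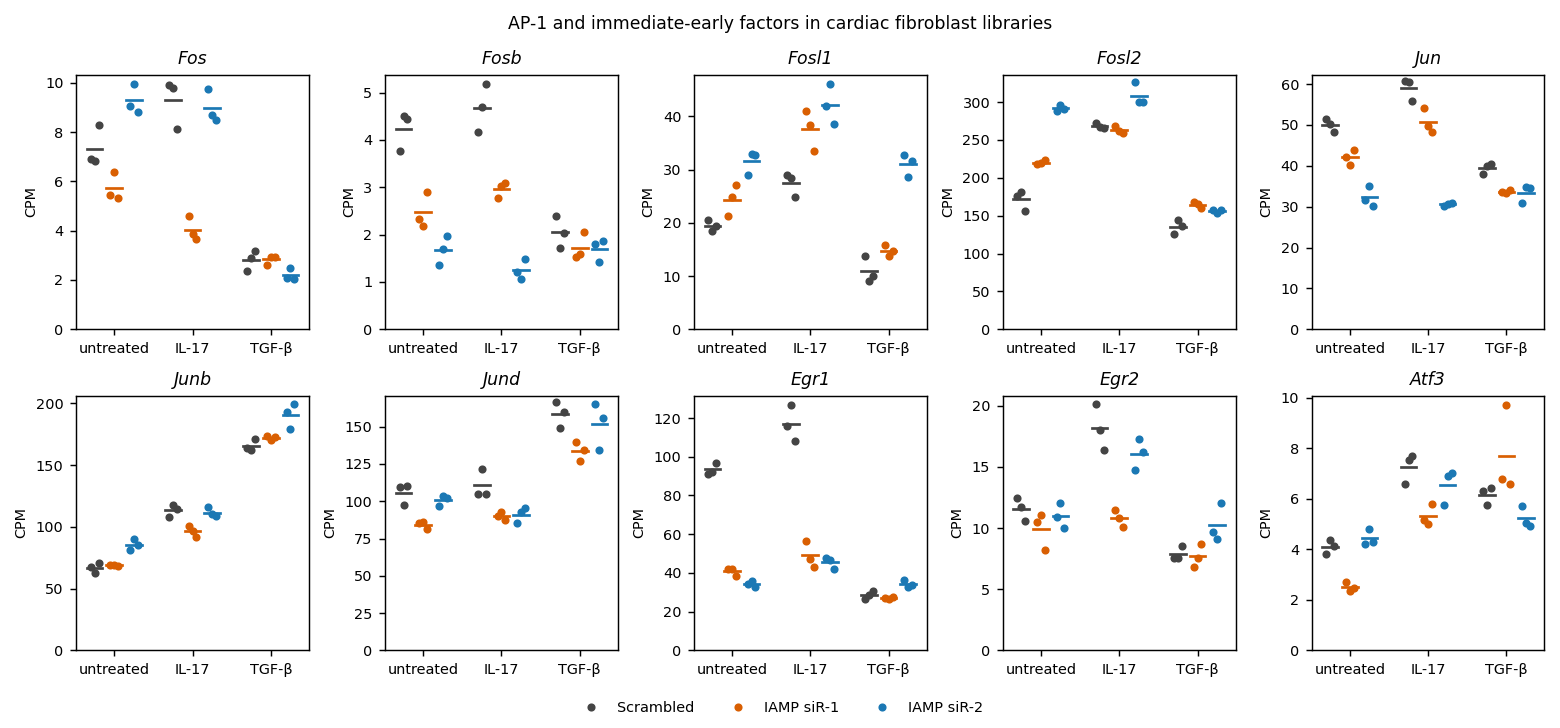
CPM of each gene in 27 CF libraries, grouped by stimulus on the x axis. Points are libraries, short lines are means of 3, and each panel has its own linear y axis from 0. Egr1 sits at 91.1 to 96.9 CPM in untreated Scrambled libraries and at 32.6 to 42.1 CPM with either IAMP siRNA, while with TGF-β all 9 libraries lie between 26.3 and 36.4 CPM.

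IAMP knockdown was first compared with Scrambled in untreated CFs, to see which of these factors changed without a stimulus. Both siRNAs lowered Egr1, Fosb and Jun and raised Fosl1 and Fosl2, and both comparisons share the same 3 Scrambled libraries. With IAMP siR-1, 8 of the 10 genes passed edgeR's quasi-likelihood test at a Benjamini-Hochberg adjusted p of at most 0.05, 2 higher and 6 lower, against 39.9% of 19669 genes tested. With IAMP siR-2, 7 passed, 4 higher and 3 lower, against 49.3%. The median log2 fold change of the 10 was -0.29 with IAMP siR-1 and 0.0030 with IAMP siR-2, beside -0.016 and -0.020 over all genes. Nothing in the labels says that the 3 libraries of a group came from separate cultures, so p-values measure the spread between these libraries, which may be technical.

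Egr1, the zinc-finger factor that ERK signalling induces through serum response factor, moved most. It had 91.1, 92.3 and 96.9 CPM in Scrambled CFs, 42.1, 41.9 and 38.3 CPM with IAMP siR-1, and 34.2, 35.8 and 32.6 CPM with IAMP siR-2. All libraries of either siRNA lay below all Scrambled ones. The log2 fold change was -1.20 ± 0.05 (SE, adjusted p = 7.24e-12) and -1.47 ± 0.05 (adjusted p = 2.22e-13). Egr2, the related factor known from myelination and T cells, had 12.5, 11.7 and 10.6 CPM in Scrambled CFs, 10.5, 11.02 and 8.21 CPM with IAMP siR-1 and 10.9, 12.1 and 9.99 CPM with IAMP siR-2. Its groups overlapped and neither siRNA passed the test (-0.23 ± 0.11, adjusted p = 0.0976, and -0.10 ± 0.11, adjusted p = 0.505). Without IAMP siR-1 replicate 2 the first passed (-0.32, adjusted p = 0.0449).

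In the FOS family the members moved in opposite directions. Fosb, a strong transactivator that partners JUN proteins, had 3.76, 4.50 and 4.44 CPM in Scrambled CFs, 2.33, 2.18 and 2.90 CPM with IAMP siR-1, and 1.36, 1.70 and 1.97 CPM with IAMP siR-2. It fell by 0.78 ± 0.17 on the log2 scale with IAMP siR-1 (adjusted p = 0.00102) and by 1.35 ± 0.17 with IAMP siR-2 (adjusted p = 3.23e-06), and no library of either siRNA reached the Scrambled range. Fosl1, which encodes FRA1, had 20.5, 18.5 and 19.4 CPM in Scrambled CFs, 21.2, 24.8 and 27.02 CPM with IAMP siR-1, and 29.0, 32.9 and 32.8 CPM with IAMP siR-2. Fosl1 rose by 0.32 ± 0.08 (adjusted p = 0.00369) and 0.68 ± 0.08 (adjusted p = 1.28e-06). Ccdc85b, its neighbour on the opposite strand, did not rise with either siRNA (-0.31 ± 0.06 and -0.03 ± 0.06).

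Fosl2, which encodes FRA2, had 176, 181 and 157 CPM in Scrambled CFs, 218, 220 and 223 CPM with IAMP siR-1, and 288, 296 and 290 CPM with IAMP siR-2. The 3 groups did not overlap, and Fosl2 rose by 0.35 ± 0.04 (adjusted p = 2.34e-06) and 0.75 ± 0.04 (adjusted p = 1.25e-10). Fos, the founding member of the family, differed in sign between the siRNAs. It had 6.90, 6.83 and 8.27 CPM in Scrambled CFs, 5.46, 6.39 and 5.31 CPM with IAMP siR-1, and 9.07, 9.94 and 8.83 CPM with IAMP siR-2. The changes were -0.36 ± 0.11 (adjusted p = 0.0104) and 0.32 ± 0.10 (adjusted p = 0.0171), and both calls rested on single libraries. The first was lost without IAMP siR-1 replicate 3 (-0.31, adjusted p = 0.0522) or Scrambled replicate 3 (-0.27, adjusted p = 0.0655). The second was lost without IAMP siR-2 replicate 2 (0.28, adjusted p = 0.0737), Scrambled replicate 1 (0.27, adjusted p = 0.0785) or Scrambled replicate 2 (0.27, adjusted p = 0.0714).

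Among the JUN genes, Jun, the most active partner in AP-1, had 51.5, 50.2 and 48.1 CPM in Scrambled CFs, 42.1, 40.3 and 43.8 CPM with IAMP siR-1, and 31.5, 35.0 and 30.2 CPM with IAMP siR-2. The 3 groups were ordered without overlap, and Jun fell by 0.25 ± 0.05 (adjusted p = 0.000961) and 0.65 ± 0.05 (adjusted p = 2.08e-08). Junb, a weaker activator that can oppose JUN, had 67.3, 63.0 and 70.9 CPM in Scrambled CFs and overlapped with IAMP siR-1 (0.03 ± 0.04, adjusted p = 0.664). With IAMP siR-2 it had 81.3, 89.9 and 85.6 CPM and rose by 0.33 ± 0.04 (adjusted p = 7.92e-06). Prdx2, which overlaps Junb on the opposite strand, changed by 0.06 ± 0.04 in the same comparison (adjusted p = 0.275). Jund, the constitutive JUN gene, fell by 0.33 ± 0.05 with IAMP siR-1 (adjusted p = 1.7e-05). With IAMP siR-2 Jund changed by -0.09 ± 0.05 (adjusted p = 0.14), which passed only without Scrambled replicate 2 (-0.14, adjusted p = 0.00574) among the libraries left out in turn.

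Atf3, a stress-induced ATF protein that partners JUN proteins, had 3.82, 4.37 and 4.12 CPM in Scrambled CFs, 2.70, 2.34 and 2.48 CPM with IAMP siR-1, and 4.21, 4.82 and 4.27 CPM with IAMP siR-2. It fell by 0.72 ± 0.12 with IAMP siR-1 (adjusted p = 0.00017). IAMP siR-2 overlapped with Scrambled (0.09 ± 0.12, adjusted p = 0.592). The groups did not overlap for 8 of the 10 genes with IAMP siR-1, against 49.5% of all genes tested, and for 7 with IAMP siR-2, against 56.8%.

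IAMP siR-2 was also set against IAMP siR-1, since they target the same transcript. In untreated CFs 9 of the 10 genes differed, 6 higher and 3 lower with IAMP siR-2, against 45.5% of genes tested. Atf3 differed most (0.81 ± 0.12, adjusted p = 3.86e-05), followed by Fos (0.68 ± 0.11, adjusted p = 3.91e-05). Egr1 also differed (-0.27 ± 0.05, adjusted p = 0.000206). Fosb differed by -0.57 ± 0.17 (adjusted p = 0.0105), a call lost without IAMP siR-1 replicate 3 (-0.44, adjusted p = 0.0652) or IAMP siR-2 replicate 1 (-0.44, adjusted p = 0.0557). The IAMP transcript itself was lower with IAMP siR-2 than with IAMP siR-1 by 0.72 ± 0.12 on the log2 scale (adjusted p = 6.11e-05).

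**Figure D2:**
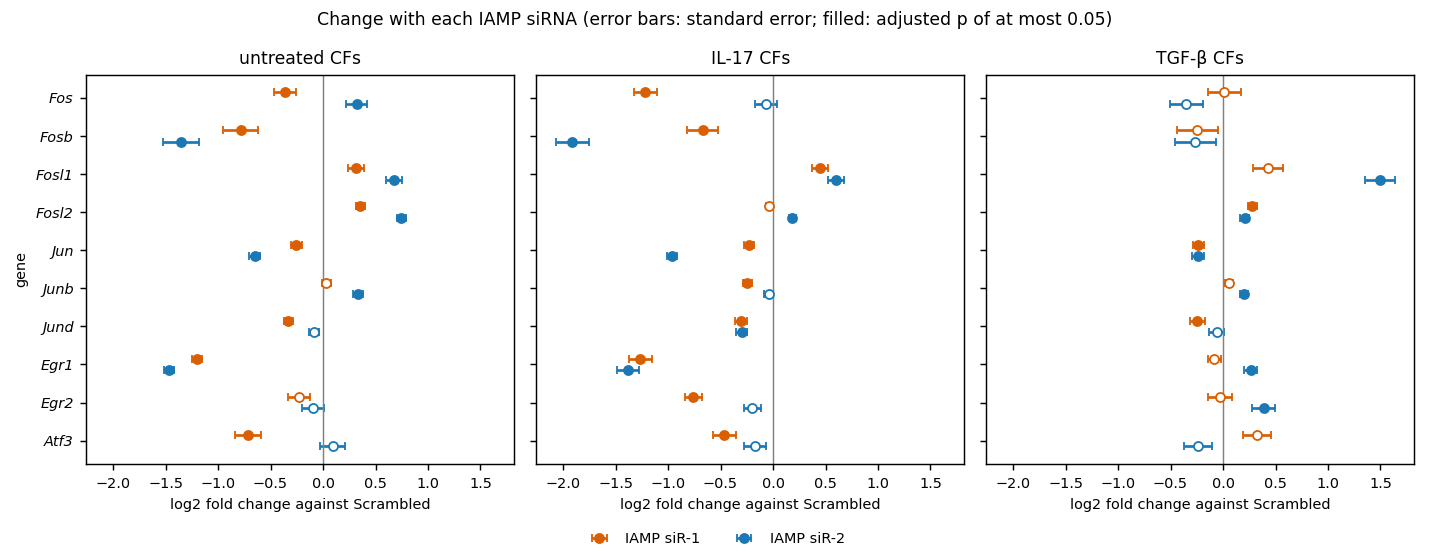
log2 fold change of each gene with IAMP siR-1 or IAMP siR-2 against Scrambled, in untreated, IL-17 and TGF-β CFs (3 libraries a group). Points are edgeR estimates, bars are standard errors and filled points have an adjusted p of at most 0.05. Egr1 stands at -1.20 to -1.47 in untreated and IL-17 CFs and at -0.08 and 0.26 with TGF-β.

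The same siRNAs were compared in CFs given IL-17, an inflammatory cytokine. Egr1, Fosb and Jun were again lower and Fosl1 higher with both siRNAs, and Fos was lower with IAMP siR-1. With IAMP siR-1, 9 of the 10 genes passed, 1 higher and 8 lower, against 42.3% of 19906 genes tested. With IAMP siR-2, 6 passed, 2 higher and 4 lower, against 50.6%. Groups did not overlap for 9 genes with IAMP siR-1 (51.8% of all genes) and for 6 with IAMP siR-2 (58.2%). The median log2 fold change of the 10 was -0.38 and -0.18, beside -0.0026 and -0.017 over all genes.

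Egr1 had 116, 127 and 108 CPM in Scrambled CFs with IL-17, 56.5, 47.3 and 43.2 CPM with IAMP siR-1, and 47.8, 46.7 and 42.0 CPM with IAMP siR-2. It fell by 1.26 ± 0.11 (adjusted p = 3.16e-05) and 1.38 ± 0.11 (adjusted p = 1.2e-05), with all libraries of either siRNA below Scrambled. Egr2 had 20.2, 17.99 and 16.4 CPM in Scrambled CFs, 11.5, 10.9 and 10.1 CPM with IAMP siR-1, and 14.8, 17.3 and 16.2 CPM with IAMP siR-2. It fell by 0.76 ± 0.08 with IAMP siR-1 (adjusted p = 7.81e-07). With IAMP siR-2 Egr2 changed by -0.20 ± 0.08 (adjusted p = 0.0534), and over all alternatives its adjusted p crossed the threshold 6 times, as low as 0.0153 without Scrambled replicate 3.

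Fos had 9.92, 9.80 and 8.14 CPM in Scrambled CFs with IL-17, 4.58, 3.85 and 3.65 CPM with IAMP siR-1, and 9.75, 8.68 and 8.51 CPM with IAMP siR-2. It fell by 1.22 ± 0.11 with IAMP siR-1 (adjusted p = 7.61e-08) and overlapped with Scrambled with IAMP siR-2 (-0.07 ± 0.11, adjusted p = 0.641). The siRNAs differed by 1.15 ± 0.11 for Fos (adjusted p = 1.18e-07). Fosb had 4.17, 4.70 and 5.18 CPM in Scrambled CFs, 2.78, 3.03 and 3.08 CPM with IAMP siR-1, and 1.22, 1.07 and 1.49 CPM with IAMP siR-2. It fell by 0.67 ± 0.15 (adjusted p = 0.00142) and 1.91 ± 0.16 (adjusted p = 1.38e-08), and the siRNAs differed by -1.24 ± 0.16 (adjusted p = 3.5e-06).

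Fosl1 had 29.0, 28.4 and 24.9 CPM in Scrambled CFs with IL-17, 41.0, 38.4 and 33.5 CPM with IAMP siR-1, and 42.0, 46.0 and 38.6 CPM with IAMP siR-2. Scrambled libraries were the lowest, and Fosl1 rose by 0.45 ± 0.08 (adjusted p = 0.000197) and 0.60 ± 0.08 (adjusted p = 6.3e-06). Fosl2 overlapped between Scrambled and IAMP siR-1 (-0.04 ± 0.03, adjusted p = 0.43) and rose by 0.18 ± 0.03 with IAMP siR-2 (adjusted p = 0.00019). Jun had 60.8, 60.4 and 55.7 CPM in Scrambled CFs, 54.2, 49.8 and 48.3 CPM with IAMP siR-1, and 30.1, 30.7 and 31.0 CPM with IAMP siR-2. Its fall was 0.23 ± 0.05 (adjusted p = 0.000866) and 0.97 ± 0.05 (adjusted p = 2.03e-11). Jund fell with both siRNAs (-0.31 ± 0.06, adjusted p = 0.00045, and -0.30 ± 0.06, adjusted p = 0.000382), and Junb and Atf3 fell with IAMP siR-1 only (-0.24 ± 0.04 and -0.46 ± 0.11). IAMP siR-2 gave -0.04 ± 0.04 for Junb and -0.17 ± 0.11 for Atf3, and it differed from IAMP siR-1 for both (0.20 ± 0.04, adjusted p = 0.000557, and 0.29 ± 0.11, adjusted p = 0.032). Prdx2, which overlaps Junb, had means of 154 CPM with IAMP siR-1 and 187 CPM with IAMP siR-2, and its part was not tested. The Atf3 difference lost its call without IAMP siR-1 replicate 1 (0.27, adjusted p = 0.0947) or 2 (0.25, adjusted p = 0.111) and without IAMP siR-2 replicate 2 (0.26, adjusted p = 0.107) or 3 (0.23, adjusted p = 0.134). In all, 7 of the 10 genes differed between the siRNAs with IL-17, 5 higher and 2 lower with IAMP siR-2, against 46.2% of genes tested.

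TGF-β turns CFs into myofibroblasts, and the siRNAs were compared in CFs given it. With IAMP siR-1, 3 of the 10 passed, 1 higher and 2 lower, against 23.1% of 19891 genes tested. With IAMP siR-2, 6 passed, 5 higher and 1 lower, against 29.9%. Groups did not overlap for 4 genes with IAMP siR-1 (37.1% of all genes) and for 7 with IAMP siR-2 (40.8%). The median log2 fold change of the 10 was -0.010 and 0.071, beside 0.0003 and 0.014 over all genes.

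Fosl1 was the largest change in this setting. It had 13.8, 9.06 and 10.1 CPM in Scrambled CFs, 15.8, 13.8 and 14.6 CPM with IAMP siR-1, and 32.8, 28.6 and 31.6 CPM with IAMP siR-2. All IAMP siR-2 libraries were far above the rest, and Fosl1 rose by 1.497 ± 0.14 (adjusted p = 2.76e-05). Ccdc85b changed by -0.28 ± 0.08 in the same comparison (adjusted p = 0.0111). With IAMP siR-1 Fosl1 changed by 0.43 ± 0.14 (adjusted p = 0.0576), a value that moved to 0.63 (adjusted p = 5.18e-05) without Scrambled replicate 1, the highest of its group. Fosl2 had 126, 144 and 137 CPM in Scrambled CFs and rose by 0.28 ± 0.04 with IAMP siR-1 (adjusted p = 0.000127) and 0.21 ± 0.04 with IAMP siR-2 (adjusted p = 0.00126).

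Egr1 had 26.6, 28.5 and 30.5 CPM in Scrambled CFs with TGF-β, 26.996, 26.3 and 27.5 CPM with IAMP siR-1, and 36.4, 32.6 and 33.8 CPM with IAMP siR-2. IAMP siR-1 overlapped with Scrambled (-0.08 ± 0.06, adjusted p = 0.398) and with IAMP siR-2 Egr1 rose by 0.26 ± 0.06 (adjusted p = 0.00278). Jun had 38.1, 40.0 and 40.4 CPM in Scrambled CFs, 33.5, 33.3 and 34.0 CPM with IAMP siR-1, and 30.8, 34.8 and 34.5 CPM with IAMP siR-2. It fell by 0.23 ± 0.06 (adjusted p = 0.00479) and 0.24 ± 0.06 (adjusted p = 0.00282). Junb rose by 0.20 ± 0.04 with IAMP siR-2 (adjusted p = 0.000671) and Egr2 by 0.39 ± 0.11 (adjusted p = 0.015). Prdx2, which overlaps Junb, rose by 0.13 ± 0.03 in the same comparison (adjusted p = 0.00703). The Egr2 call was lost without IAMP siR-2 replicate 3 (0.26, adjusted p = 0.109), Scrambled replicate 1 (0.36, adjusted p = 0.059) or Scrambled replicate 2 (0.36, adjusted p = 0.0589).

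Jund changed by -0.25 ± 0.07 with IAMP siR-1 (adjusted p = 0.0296), a call that did not hold when IAMP siR-1 replicate 2 (adjusted p = 0.0887) or 3 (adjusted p = 0.0853) or Scrambled replicate 1 (adjusted p = 0.151) or 3 (adjusted p = 0.116) was left out. Fos, Fosb and Atf3 passed with neither siRNA. Fos had 2.37, 2.87 and 3.19 CPM in Scrambled CFs and gave 0.01 ± 0.16 and -0.35 ± 0.16. Fosb gave -0.25 ± 0.20 and -0.26 ± 0.20, and Atf3 gave 0.32 ± 0.13 and -0.24 ± 0.13. Without IAMP siR-1 replicate 3, Atf3 passed with that siRNA (0.42, adjusted p = 0.0472). Between the siRNAs 5 genes differed, 4 higher and 1 lower with IAMP siR-2, against 24% of genes tested. Fosl1 differed most (1.07 ± 0.14, adjusted p = 0.000384), and Atf3 was the lower one (-0.56 ± 0.13, adjusted p = 0.00485). That count ran from 3 to 6 as libraries were left out in turn. It was 3 without IAMP siR-2 replicate 3, where Egr2 (0.29, adjusted p = 0.081) and Junb (0.11, adjusted p = 0.0699) lost their calls.

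The stimuli were then compared with untreated CFs within the Scrambled libraries. Stimulated and untreated cells are in separately deposited tables, so the stimulus and any difference in handling or sequencing between tables cannot be told apart. With IL-17, 8 of the 10 genes passed, all 8 higher, against 13.6% of 21219 genes tested and 6.61% called higher. Groups did not overlap for 7 of them, against 26.6%. The median of the 10 was 0.41 beside -0.012 over all genes. With TGF-β all 10 passed and none overlapped, 3 higher and 7 lower, against 57.3% of 21508 genes called and 64.5% not overlapping. The median was -0.45 beside 0.028 over all genes. The 2 comparisons share the untreated Scrambled libraries.

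**Figure D3:**
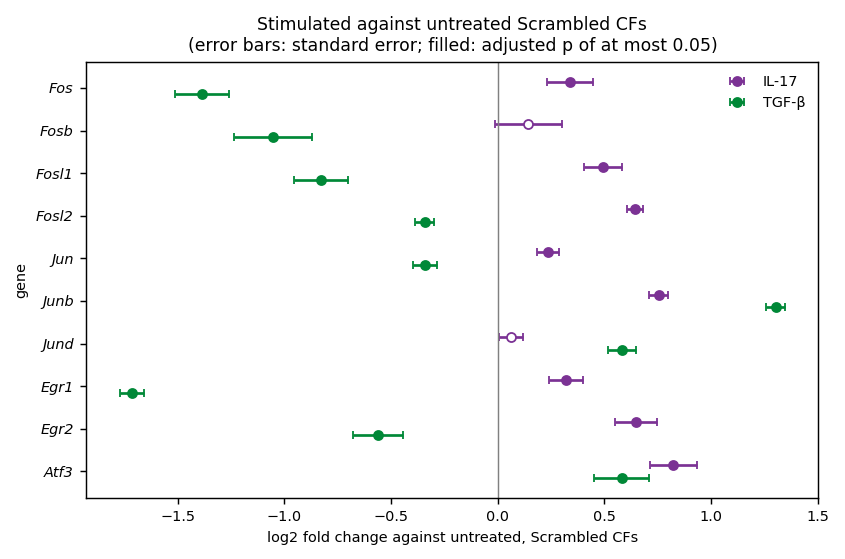
log2 fold change of each gene in Scrambled CFs with IL-17 or TGF-β against untreated Scrambled CFs (3 libraries a group). Points are edgeR estimates, bars are standard errors and filled points have an adjusted p of at most 0.05. IL-17 points lie between 0.06 and 0.82, and TGF-β points run from -1.72 for Egr1 to 1.30 for Junb.

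With IL-17 the largest values were Atf3 at 0.82 ± 0.11 (adjusted p = 2.69e-06), Junb at 0.75 ± 0.04 (adjusted p = 1.11e-12), Egr2 at 0.65 ± 0.10 (adjusted p = 2.14e-05) and Fosl2 at 0.64 ± 0.04 (adjusted p = 2.39e-12). Atf3 had 6.59, 7.53 and 7.70 CPM with IL-17, above the 3.82 to 4.37 CPM of untreated cells, and Junb had 108, 118 and 114 CPM, above 63.0 to 70.9 CPM. Fosl1 rose by 0.49 ± 0.09 (adjusted p = 0.00046) and Jun by 0.24 ± 0.05 (adjusted p = 0.00157). Egr1 and Fos passed with less margin. Egr1 gave 0.32 ± 0.08 (adjusted p = 0.0111), lost without untreated replicate 1 (0.30, adjusted p = 0.0525) or IL-17 replicate 2 (0.26, adjusted p = 0.0548). Fos gave 0.34 ± 0.11 (adjusted p = 0.0328), and its groups overlapped. Fos lost the call without untreated replicate 1 (0.30, adjusted p = 0.136) or 2 (0.29, adjusted p = 0.125), or IL-17 replicate 1 (0.29, adjusted p = 0.15) or 2 (0.30, adjusted p = 0.121). Fosb (0.14 ± 0.16) and Jund (0.06 ± 0.06) did not pass.

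With TGF-β, Junb, Jund and Atf3 rose, while Jun and all the other genes fell. Junb had 164, 162 and 171 CPM and rose by 1.30 ± 0.04 (adjusted p = 6.6e-18). Jund had 167, 149 and 160 CPM, above the 97.2 to 110 CPM of untreated cells, and rose by 0.58 ± 0.06 (adjusted p = 2.12e-07), while Jun fell by 0.34 ± 0.06 (adjusted p = 1.19e-05). Atf3 rose by 0.58 ± 0.13 (adjusted p = 0.000422).

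Egr1 fell by 1.72 ± 0.06 with TGF-β (adjusted p = 4.52e-18), from 91.1 to 96.9 CPM down to 26.6 to 30.5 CPM. Fos fell by 1.39 ± 0.13 (adjusted p = 7.73e-10), Fosb by 1.05 ± 0.18 (adjusted p = 2.22e-05) and Egr2 by 0.56 ± 0.12 (adjusted p = 0.000235). Fosl2 fell by 0.34 ± 0.05 (adjusted p = 4.58e-07). Fosl1 fell by 0.83 ± 0.13 (adjusted p = 1.92e-05), and Ccdc85b, which overlaps it, fell by 0.83 ± 0.07 (adjusted p = 3.9e-10). Whether reads of one gene were counted for the other there was not tested.

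The difference between the siRNA effects with and without a stimulus was tested in 1 fit over both tables. Under IL-17 against untreated, 4 of the 10 genes passed for IAMP siR-1, against 2.13% of 21219 genes, and 3 for IAMP siR-2, against 1.89%, all 7 toward a lower value. For IAMP siR-1 these were Fos (-0.85 ± 0.15, adjusted p = 0.00149), Fosl2 (-0.39 ± 0.06, adjusted p = 7.45e-05), Junb (-0.27 ± 0.06, adjusted p = 0.0152) and Egr2 (-0.53 ± 0.14, adjusted p = 0.0459). For IAMP siR-2 they were Fosl2 (-0.56 ± 0.06, adjusted p = 2.94e-07), Junb (-0.37 ± 0.06, adjusted p = 0.00074) and Jun (-0.31 ± 0.07, adjusted p = 0.0209). The Egr1 effect gave -0.06 ± 0.11 and 0.10 ± 0.11 in this test. Egr2 lost its call without any 1 of 10 libraries, with an adjusted p of up to 0.157 (IL-17 Scrambled replicate 1), and Jun without any 1 of 6, with up to 0.091 (untreated IAMP siR-2 replicate 2). The Junb call for IAMP siR-1 was lost without IL-17 IAMP siR-1 replicate 3 (-0.24, adjusted p = 0.0646).

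Under TGF-β against untreated, 2 genes passed for IAMP siR-1, against 19.6% of 21508 genes, and 7 for IAMP siR-2, against 30.2%. Egr1 passed for both, at 1.11 ± 0.08 (adjusted p = 3.35e-10) and 1.71 ± 0.08 (adjusted p = 6.61e-14), so its fall with knockdown in untreated CFs was not matched with TGF-β. In Scrambled CFs with TGF-β, Egr1 had a mean of 28.5 CPM. That was below untreated CFs with IAMP siR-1 (40.8 CPM) or IAMP siR-2 (34.2 CPM). Atf3 passed for IAMP siR-1 (1.03 ± 0.18, adjusted p = 0.000191). For IAMP siR-2 the effect was higher with TGF-β for Fosb (1.07 ± 0.26, adjusted p = 0.00241), Fosl1 (0.80 ± 0.17, adjusted p = 0.0019), Jun (0.39 ± 0.08, adjusted p = 0.000496) and Egr2 (0.46 ± 0.17, adjusted p = 0.0386). It was lower for Fos (-0.69 ± 0.18, adjusted p = 0.00394) and Fosl2 (-0.56 ± 0.06, adjusted p = 2.48e-07). Beside these, the knockdown itself was smaller with TGF-β, as given above, and its part in these differences was not tested. Egr2 lost its call without any 1 of 7 libraries, with an adjusted p of up to 0.119 (TGF-β IAMP siR-2 replicate 3), and at 0.0552 with the replicate number as a block.

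Other genes of the pathway were counted from lists. Of 14 genes that feed back on MAP kinases (DUSP phosphatases, Sprouty and SPRED genes), 10 fell and 3 rose with IAMP siR-1 in untreated CFs, with a median of -0.48, where 39.9% of all genes tested passed in either direction. With IAMP siR-2, 7 fell and 4 rose, with a median of -0.36, where 49.3% of all genes passed. Dusp1, an ERK- and stress-induced phosphatase of JNK and p38, fell by 1.02 with IAMP siR-1, and Dusp4 fell by 0.96. With IAMP siR-2, Dusp16 and Dusp10, phosphatases of JNK and p38, rose by 1.35 and 0.86, and Dusp5 fell by 0.76. With IAMP siR-1, Dusp16 rose by 0.63, while Dusp10 fell by 0.19 and Dusp5 by 0.24. With IL-17, 10 of the 14 fell and 3 rose with either siRNA, against 42.3% and 50.6% of all genes. TGF-β in Scrambled CFs lowered 11 of the 14 and raised 1, against 57.3% of all genes called, with a median of -0.90. Dusp5 (-3.89), Dusp4 (-3.41) and Dusp6 (-2.40), 3 ERK-responsive phosphatases, moved most.

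Of 19 upstream kinases and SRF cofactors, 7 rose and 7 fell with IAMP siR-1 in untreated CFs, and 8 rose and 8 fell with IAMP siR-2, beside the same 39.9% and 49.3% of all genes. Both siRNAs lowered Map2k6, a p38 kinase kinase (-1.38 and -1.82), and Mapk8, which encodes JNK1 (-0.64 and -1.30). The EGR corepressor gene Nab2 rose by 0.71 with IAMP siR-1, while Nab1 rose by 0.32 with IAMP siR-2. Of 11 partner bZIP genes, 5 rose and 1 fell with IAMP siR-1 (39.9% of all genes) and 4 rose and 4 fell with IAMP siR-2 (49.3%). Jdp2, a repressor that dimerises with JUN proteins, fell with both (-0.47 and -1.22).

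Of 21 other immediate-early genes, 9 rose and 8 fell with IAMP siR-1 in untreated CFs, and 12 rose and 7 fell with IAMP siR-2, against 39.9% and 49.3% of all genes. Egr3 (-1.17) and the orphan receptor gene Nr4a1 (-1.10) moved most with IAMP siR-1. With IAMP siR-2 they were Nr4a3 (1.76), Arc (-1.51) and Klf2 (-1.46). Egr3 (1.00) and Nr4a1 (0.25) rose with IAMP siR-2, opposite to IAMP siR-1. Nr4a3 fell with IAMP siR-1 (-0.82), opposite to IAMP siR-2, while Arc (-0.68) and Klf2 (-0.71) fell with both. IL-17 raised 11 and lowered 5 of them in Scrambled CFs, against 13.6% of all genes called. TGF-β raised 4 and lowered 11, with Nr4a3 at -4.55, against 57.3% of all genes called.

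Of 18 genes known as AP-1 targets, 10 rose and 5 fell with each siRNA in untreated CFs, with medians of 0.31 and 0.43, against 39.9% and 49.3% of all genes called. Hmox1, for heme oxygenase, rose by 2.62 with IAMP siR-1 and 1.06 with IAMP siR-2. In the same order Mmp3, for stromelysin, rose by 1.80 and 1.96, and Il6 by 1.33 and 2.77. Ccnd1, for cyclin D1, fell with both (-1.85 and -2.05). The collagenase gene Mmp13 rose with both siRNAs in untreated CFs (1.51 and 1.67), under IL-17 (2.30 and 2.54) and under TGF-β (1.61 and 1.98). The members of these lists moved both ways within 1 comparison, and many have other regulators.

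In hearts, IAMP-KO and HET mice were compared at baseline. None of the 9 genes tested passed, each with an adjusted p of 1, and their groups all overlapped, where 0% of 16675 genes passed and 2.37% did not overlap. Without adjustment, p was under 0.05 for 601 genes and for 0 of these 9, and DESeq2 also called 0 of them. No gene of the pathway lists passed in hearts either. Fosl1 had 0 to 4 counts and was not tested. The intervals were wide for the inducible genes. Fos gave 0.41 ± 0.44, Egr1 -0.04 ± 0.40, Atf3 -0.06 ± 0.54 and Fosb 0.21 ± 0.51, against -0.10 ± 0.06 for Jun and -0.07 ± 0.05 for Jund.

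Individual hearts differed more than the genotypes did. Fos had 1.55, 2.57, 3.26 and 4.08 CPM in HET hearts and 1.31, 5.21, 3.60 and 5.19 CPM in IAMP-KO hearts. The lowest in either group, HET heart 1143 and IAMP-KO heart 1146 by the numbers in the file header, stood below all others. Atf3 had 3.09, 7.74, 9.45 and 13.5 CPM in HET hearts and 3.04, 12.7, 6.56 and 10.3 CPM in IAMP-KO hearts, with the same 2 hearts lowest. Egr1 had 7.82, 12.5, 14.7 and 24.2 CPM and 8.29, 18.01, 12.5 and 18.8 CPM, again with hearts 1143 and 1146 lowest. Across the 8 hearts the coefficient of variation was 44.4% for Fos, 60.7% for Fosb, 47.7% for Atf3 and 38.1% for Egr1, against 5.67% for Jund, 6.40% for Jun and a median of 9.67% over genes of at least 0.5 CPM.

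**Figure D4:**
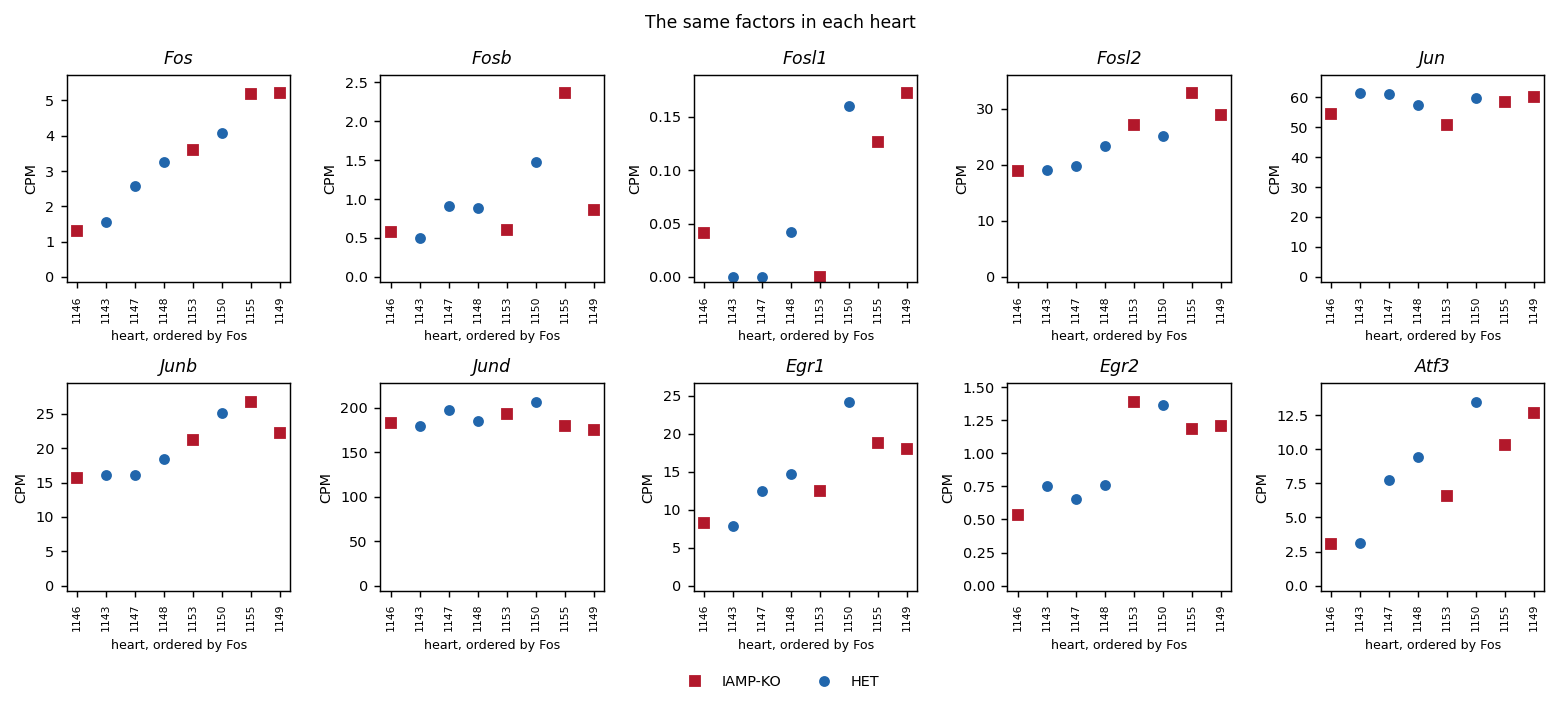
CPM of each gene in the 8 hearts, ordered on the x axis by Fos from low to high (file header numbers). Blue circles are HET, red squares are IAMP-KO, and each panel has its own linear y axis that starts just below 0. Fosl2, Junb, Egr1 and Atf3 climb in much the same order as Fos, while Jun (50.6 to 61.4 CPM) and Jund stay level.

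The relation of the other 9 genes to Fos over the 8 hearts was tested on log2(CPM + 1) with exact two-sided permutation tests over all pairings. By Pearson's r, 5 of the 9 had an unadjusted p of at most 0.05, Fosl2, Atf3, Egr1, Junb and Egr2, against 12.3% of 16674 genes tested in hearts. The same 5 stayed under it when adjusted over the 9, a family chosen with earlier results known. Adjusted over the 16674 genes, none of them passed, with an adjusted permutation p from 0.264 (Fosl2) to 0.315 (Egr2), nor did any other gene. The adjusted values that follow are over the 9. Fosl2 had r = 0.93 and rho = 0.95 (permutation p = 0.000843 and 0.00114, adjusted 0.00759 and 0.01), and r = 0.92 without hearts 1143 and 1146, the 2 farthest from the median of Fos. Junb had r = 0.89 and rho = 0.93 (permutation p = 0.00352 and 0.00223, adjusted 0.0103 and 0.01), and r = 0.86 without them. Atf3 had r = 0.92 and rho = 0.86 (permutation p = 0.00355 and 0.0107, adjusted 0.0103 and 0.0241), and r = 0.62 without them.

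Egr1 had r = 0.89 and rho = 0.86 (permutation p = 0.00459 and 0.0107, adjusted 0.0103 and 0.0241), and r = 0.66 without them. Egr2 had r = 0.81 and rho = 0.76 (permutation p = 0.0175 and 0.0368, adjusted 0.0315 and 0.0662), and r = 0.69 without them. The Egr2 relation missed the threshold without heart 1150, 1146, 1149 or 1155, at an adjusted permutation p of 0.0646, 0.114, 0.058 and 0.0664. Fosb (r = 0.68, adjusted permutation p = 0.0748) and Fosl1 (r = 0.70, adjusted permutation p = 0.0748, on 0 to 4 counts) did not pass. Jun (r = 0.05) and Jund (r = 0.03) gave adjusted permutation p values of 0.939. HET and IAMP-KO hearts were pooled here, with too few of either to test alone.

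Total counts per heart were 23497027 in 1146 and 23604561 in 1143, the lowest of the 8, against 23698018 to 23857313 in the other 6, and the part of depth in the low values was not tested. The summed erythroid markers were highest in the same hearts, at 1295 CPM in 1143 and 1419 CPM in 1146, against 956 to 1156 CPM in the other 6. Cardiomyocyte markers summed to 44208 and 40846 CPM in these 2 hearts, the highest and the lowest of the 8. The labels give no order or time of dissection, and the part of blood content or of handling in these values was not tested.

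Among 14444 genes tested in hearts and averaging 1 CPM or more, those most like Fos by Pearson's r over the 8 hearts were Tiam2 (0.97), Eif1a (0.97), Clic4 (0.97), Abra (0.96) and Csrnp1 (0.96). Csrnp1 is itself on the list of other immediate-early genes. The ranked genes of that list ran from Csrnp1 down to Klf10 (-0.75, rank 13876), with Ier3 at 0.02. Fosl2 ranked at 29, Atf3 at 53, Egr1 at 117 and Junb at 128. Over the 27 CF libraries, the genes most like Fosl1 among 13329 were Abcb1a (0.94), Plaur (0.92), Steap1 (0.91), Mtdh (0.90) and Hspa9 (0.90). Fosl2 was the highest-ranked of the other factors (r = 0.78, rank 347). These are descriptions over libraries that share groups and tables, and they carry no test.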

How the data were processed

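RNA was selected with oligo(dT) beads and sequenced as bulk libraries. Per the submitters' notes the authors used cutadapt, HISAT2 with GRCm38, and StringTie. Whether counting used strand, which annotation release was used and how values became whole numbers were not given in the sources used here. The 3 CF tables were deposited as estimated counts, in which 1 read pair is worth up to about 6, so a library's total overstates its depth and 18 was taken as the floor of 3 read pairs. The heart table was deposited as raw counts with a floor of 3.

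Gene identifiers and lengths came from GENCODE vM21, in which 55227 of 55487 identifiers were found. CPM used TMM over all 27 CF libraries together or over the 8 hearts. Tests used edgeR 4.0.16 in R 4.3.3 (filterByExpr, TMM, robust quasi-likelihood fit) with Benjamini-Hochberg adjustment over all genes tested, and a gene passed at an adjusted p of at most 0.05. Estimated counts are whole numbers in the tables. Each siRNA was tested in a fit of the 9 libraries of its table, stimuli and interactions in fits of 18 libraries, and hearts in a fit of 8. SEs of edgeR log2 fold changes were derived from the test, as the absolute log2 fold change over the square root of the F statistic. Correlations used Python 3.11.15. The method was tested on simulated data.

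Alternatives were DESeq2 1.42.0, RLE size factors, no filter, at least 10 counts in every library, counts divided by 6, only the groups compared, a replicate block, a fold threshold on top of the adjusted p (log2 of 0.585 for siRNAs in stimulated CFs, 1 in all other comparisons, stimuli and interactions included) each library left out and, chosen after seeing the data, the heart correlations adjusted over all genes. The members and gene lists were chosen with earlier results of these data known. All 10 members are named in every comparison, and of each list up to 3 genes with the largest change among those that passed, some of which are printed. No 2 replicates agreed within sampling noise.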

Additional observations from a re-analysis of the deposited data

Results flagged for a closer look

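Among 20 groups of 4 hearts tested for a lone value, 2 had 1 heart far from the other 3, and chance gives about 1 in 20 such groups. Egr2 was 1.36 CPM in HET heart 1150, with a gap of 0.844 of the group's range. Fosb was 2.36 CPM in IAMP-KO heart 1155, with a gap of 0.839, against a critical value of 0.829.

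The siRNA effect differed between stimulated and untreated CFs, by the interaction test of edgeR, for 16 pairs of gene and contrast. For IAMP siR-1 with IL-17 the difference of log2 fold changes was -0.85 for Fos, -0.39 for Fosl2, -0.53 for Egr2 and -0.27 for Junb. For IAMP siR-2 with IL-17 it was -0.56 for Fosl2, -0.31 for Jun and -0.37 for Junb. For IAMP siR-1 with TGF-β it was 1.03 for Atf3 and 1.11 for Egr1. For IAMP siR-2 with TGF-β it was 1.07 for Fosb, -0.69 for Fos, 0.80 for Fosl1, -0.56 for Fosl2, 0.46 for Egr2, 1.71 for Egr1 and 0.39 for Jun. The stimulus and the table cannot be told apart in these tests.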

How the results depend on the processing

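Adding a fold threshold to the adjusted p (smaller for siRNAs in stimulated CFs than in all other comparisons, stimuli and interactions included) lowered most counts of members called. In untreated CFs 1 passed with IAMP siR-1, 2 with IAMP siR-2 and 0 between the siRNAs. With IL-17, 4 passed with IAMP siR-1 and 3 between the siRNAs. For IAMP siR-2 with IL-17, Egr1, Fosb, Fosl1 and Jun passed, while Fosl2 and Jund lost their calls. With TGF-β, 0, 1 and 1 passed. The IL-17 stimulus gave 0 and TGF-β 4, and the interactions gave 0 and 0 with IL-17 and 2 for IAMP siR-2 with TGF-β. By construction that rule keeps only larger changes.

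Leaving out each library in turn gave 7 to 9, 6 to 7 and 8 to 9 members in untreated CFs (IAMP siR-1, IAMP siR-2, between the siRNAs), 9, 6 to 7 and 6 to 7 with IL-17, and 2 to 3, 5 to 6 and 3 to 6 with TGF-β. Stimuli gave 6 to 8 (IL-17) and 10 (TGF-β), interactions 2 to 4 and 2 to 3 (IL-17), 2 and 6 to 7 (TGF-β), hearts 0, and correlations with Fos 4 to 5. Adjusted over all genes tested in hearts, an alternative chosen after seeing the data, 0 of those correlations passed.

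Signs turned only for values that had not passed. The interaction of IAMP siR-1 with TGF-β for Jun was -0.0005 with no filter. That of IAMP siR-2 for Jund was -0.0020 with no filter, -0.0065 with at least 10 counts and -0.0054 with counts divided by 6. With a library left out, ranges that crossed 0 were -0.0139 to 0.0728 for Junb (untreated, IAMP siR-1), -0.093 to 0.1125 for Fos and -0.1286 to 0.0469 for Egr2 (TGF-β, IAMP siR-1), -0.1252 to 0.0173 for Jund (TGF-β, IAMP siR-2), -0.094 to 0.1283 for Fosb and -0.0385 to 0.0468 for Jun (TGF-β, between siRNAs), -0.0328 to 0.0474 for Jund (IL-17, between siRNAs) and -0.0113 to 0.1025 for Jund (IL-17 stimulus). Interactions with IAMP siR-1 and IL-17 ran from -0.1719 to 0.0241 (Egr1), -0.0185 to 0.0642 (Jun) and -0.014 to 0.0998 (Jund). Those with TGF-β ran from -0.0177 to 0.3047 (Fosl1), -0.0124 to 0.0535 (Jun) and -0.012 to 0.0658 (Junb), and for IAMP siR-2 from -0.0387 to 0.1193 (Jund). Hearts gave -0.4784 to 0.5186 (Fosb), -0.3535 to 0.2634 (Atf3) and -0.2549 to 0.3001 (Egr1), and correlations with Fos -0.2337 to 0.3101 (Jun) and -0.1967 to 0.3131 (Jund).

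Libraries with the same replicate number did not deviate together (27 correlations from -0.319 to 0.128), so the numbers were not taken as pairs. With a replicate block Egr2 (untreated, IAMP siR-1, adjusted p = 0.0293), Fosl1 (IL-17 between siRNAs, 0.0173, and TGF-β with IAMP siR-1, 0.0017) and Jund (TGF-β between siRNAs, 0.00242) passed in edgeR, and the Egr2 interaction of IAMP siR-2 with TGF-β did not (0.0552). No label ties hearts by number. Without a library left out, 1036 single values kept their direction and side of the threshold, 12 gained and 3 lost it. Low counts limit Fosl1 in hearts.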
